A study of Mus musculus with 40 samples.

Results

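The effect of an added Chd8 copy on the mouse forebrain was compared gene by gene between E14.5 and E18.5, named for the days of embryonic development, to see which functions shift between the stages. The study sequenced polyadenylated RNA from the forebrain of male mice: 5 wild-type (WT) and 5 Chd8 KI libraries at E14.5, and 5 WT and 5 Chd8 KI libraries at E18.5. KI is the labels' name for the animals that carry the added copy of Chd8, and the labels give no strain, no age other than the stage and no site of the added copy. Separate litters or cultures are not mentioned, so the errors measure only the spread between these libraries, which may be technical. The genes compared were the 12279 whose mean normalized count reached 50 at both stages, out of 15415 listed at both stages and 17974 listed at either.

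CHD8 is an ATP-dependent chromatin remodeler that binds promoters of many active genes, and heterozygous loss of its gene is among the well-established genetic causes of autism. At E14.5 the forebrain wall is rich in dividing radial glia and intermediate progenitors that give rise to cortical neurons. By E18.5 most projection neurons have left the cell cycle and are extending axons and building receptors, while the ventricular zone begins to yield glia.

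The measure used throughout is the stage difference: the log2 fold change of KI against WT at E18.5 minus the log2 fold change of KI against WT at E14.5. A negative value means that KI stood lower against WT at E18.5 than at E14.5, and a positive value that it stood higher. The fold change and its standard error (SE) at each stage are those of the authors' deposited tables, and the SE of the difference joins both. These tables hold no value per library, so each gene is given by its fold change and SE at each stage. Which genotype is the numerator is not stated in them, and the direction was read from Chd8 itself. The authors' deposited tables gave Chd8 a log2 fold change of 0.64 (SE 0.031) at the earlier stage and 0.51 (SE 0.038) at the later one, which places KI as the numerator at both and makes Chd8 no independent check of the labels. Its stage difference was −0.13 (SE 0.049, 95% interval −0.22 to −0.03), not past the adjusted threshold (Wald test, Benjamini-Hochberg adjusted p = 0.993). The excess of Chd8 RNA was therefore present at both stages, with a point estimate that was smaller at E18.5.

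No gene passed the test of the stage difference. Of 12279 genes, 0 (0%) had a Benjamini-Hochberg adjusted p under 0.05 in the Wald test, and the lowest adjusted p was 0.347. An unadjusted p under 0.05 was found for 560 genes (4.56%), of which 294 (2.39%) stood higher and 266 (2.17%) lower at E18.5. Under the normal reference this is no more than a threshold of 0.05 gives where no gene differs. That reading depends on the reference. At the same threshold an empirical null gave 401 higher and 345 lower, and a t reference 214 and 179. The Benjamini-Yekutieli adjustment, a t reference and an empirical null also called 0 genes. The median SE of the difference was 0.096, so a gene of that SE needed a difference of 0.44 to pass on its own. On simulated data with the same SEs, 67 genes were given a true difference of 0.3, 67 one of 0.5 and 66 one of 1.0. The test recovered 46.3%, 73.1% and 95.5% of these, respectively. So many planted differences loosen the Benjamini-Hochberg threshold, so these shares overstate what the test could find where few genes differ. The groups of genes below are therefore described by counts and medians, beside the same values over all genes tested. For all genes tested the median difference was −0.0004 with 49.9% above 0 and 50.1% below. The groups were written with earlier results of these data known, so their shares are a description.

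Genes of cell division stood lower on balance at E18.5, as did lists for radial glia, patterning factors, ribosome biogenesis, glial lineages and metallothioneins, and neuronal genes stood higher. Genes of division had a median stage difference of −0.12 over 94 members, with 81 below 0 and 22 at an unadjusted p under 0.05 in that direction (23.4%, against 2.17% of all genes), and 0 in the other. Genes that mark classes of neurons or neuronal structure had a median of 0.06 over 148 members, with 100 above 0 and 20 at an unadjusted p under 0.05 in that direction (13.5%, against 2.39%), and 3 in the other. Genes of the synapse and of ion channels had a median of 0.06 over 117 members, with 85 above 0. At that p, 13 were higher (11.1%, against 2.39%) and 0 lower. Glycolysis, ribosomal proteins, mitochondrial respiration, the interferon and class I histocompatibility list and the interneuron lineage had list medians between −0.022 and 0.009. Of 46 lists with at least 5 members measured, 19 had a median above 0 and 27 below.

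**Figure D1:**
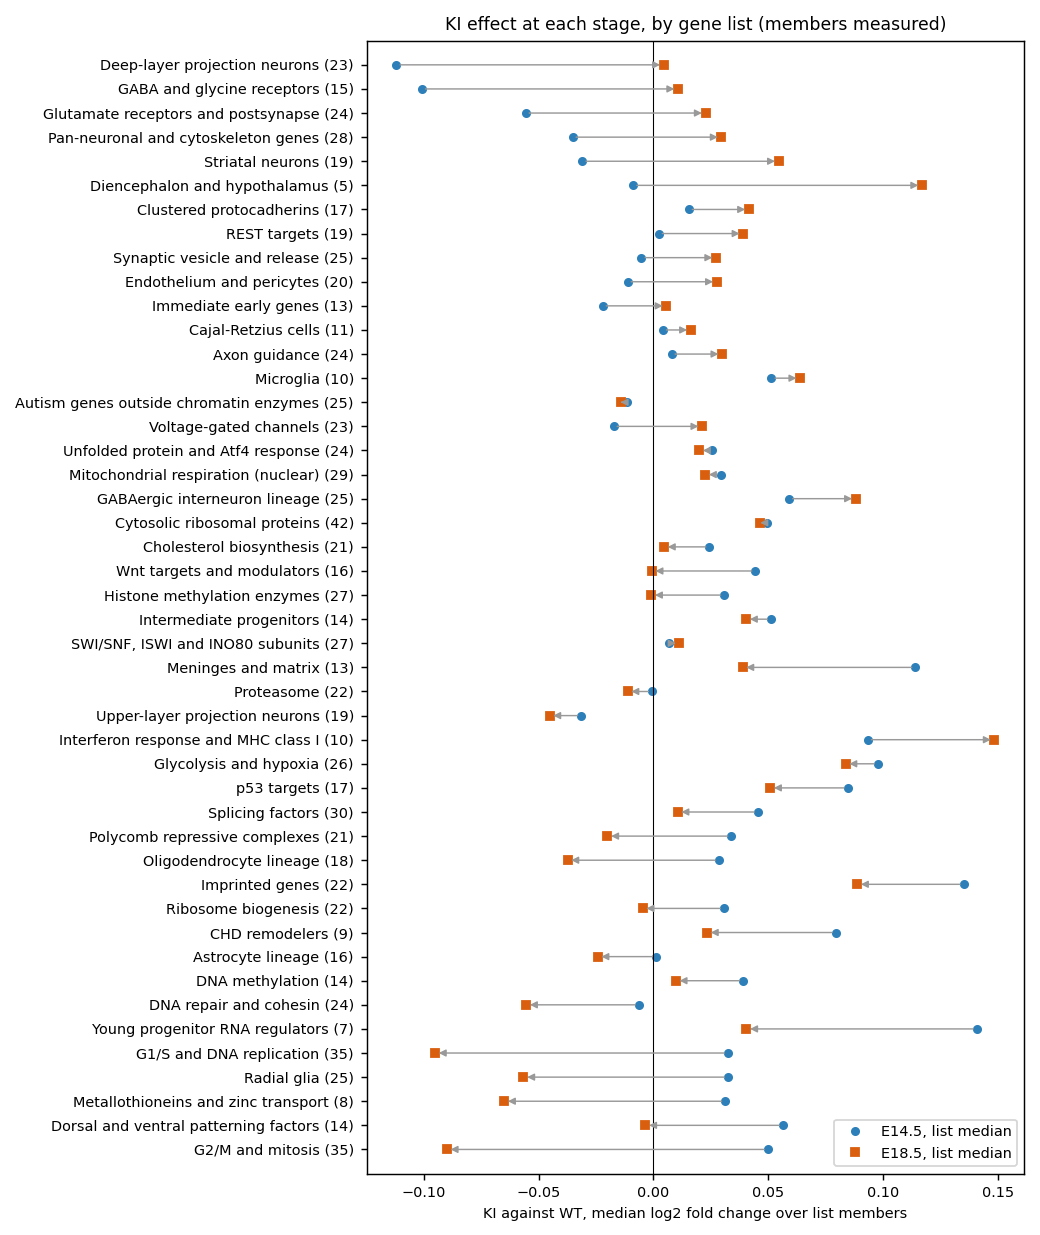
Median log2 fold change of KI against WT over the members of each of 46 gene lists at E14.5 (circles) and at E18.5 (squares), with an arrow from the first to the second; the number of members is in brackets and lists are ordered by the median stage difference. The deep-layer list moves from −0.112 to 0.005 and the G2/M list from 0.050 to −0.090, while the ribosomal protein list stays near 0.05.

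Genes of G2 and mitosis showed the most uniform difference. Of 35 members, 34 had a negative stage difference and 1 a positive one, with a median of −0.144. Members of a list are not independent replicates, so their agreement in sign is a description. At E14.5, 33 of the 35 stood above 0 in the authors' deposited table with a list median of 0.050, and at E18.5 only 1 did, with a list median of −0.090. Mki67, the gene of the proliferation antigen Ki-67, stood at 0.03 (SE 0.046) and then at −0.17 (SE 0.052) in the authors' deposited tables, a difference of −0.20 (SE 0.070, unadjusted p = 0.0036). Tpx2, which builds the mitotic spindle, stood at 0.04 (SE 0.051) and −0.19 (SE 0.072) in those deposited tables, and Nuf2, a kinetochore subunit, at 0.06 (SE 0.058) and −0.25 (SE 0.121). Their differences were −0.24 (SE 0.088) and −0.31 (SE 0.134). Top2a, the topoisomerase of dividing cells, differed by −0.12 (SE 0.081), which is not past an unadjusted p of 0.05. The highest members were Cdk1, the mitotic kinase, at 0.02 (SE 0.114), and the kinetochore gene Ndc80 at −0.04 (SE 0.158). With Mki67, Tpx2 and Nuf2, the other members at an unadjusted p under 0.05 were Plk1, Ccnb1, Cenpf, Cdca8, Ccnb2, Mad2l1 and Cks2, all lower. These 10 of 35 stand against 2.17% of all genes. The summed mean normalized counts of the list were 70500 at the earlier and 15353 at the later stage, and the median SE of the difference was 0.118, above the 0.096 of all genes. In bulk RNA, fewer dividing cells and less RNA of these genes per cell cannot be told apart.

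A shared arrangement of promoter letters is known for this class. Many genes of G2 and mitosis carry a CHR (cell cycle homology region) near the start of transcription and CCAAT boxes upstream of it, through which the DREAM and MuvB complexes and NF-Y act, and genes of DNA replication often carry an E2F site instead. Promoters of 250 bases before to 50 bases after the start were taken from RefSeq (GRCm38.p6) for the members matched by symbol. The letters searched were TTTGAA and TTCGAA for the CHR, CCAAT for the CCAAT box, and TTTCCCGC, TTTGGCGC, TTTCGCGC and TTTGCCGC for E2F, each on both strands, with no overlap among the 3 kinds required or removed. The promoters of 3 G2/M genes and 2 replication genes of those at an unadjusted p under 0.05 are shown to make the arrangement visible. Capitals mark the matched letters, a match on the opposite strand reading as the reverse complement. Mki67 lies on the minus strand (chr7:135716330-135716629), Plk1, the polo-like kinase, on the plus strand (chr7:122159185-122159484) and Cenpf, a kinetochore protein, on the minus strand (chr1:189688037-189688336). Pold1, the catalytic subunit of DNA polymerase delta, lies on the minus strand (chr7:44548766-44549065) and Cdc6, a licensing factor of replication origins, on the plus strand (chr11:98907901-98908200). Each is printed 5′ to 3′ along its own strand. Plk1, Cenpf and Cdc6 were chosen after their values were seen.
Mki67: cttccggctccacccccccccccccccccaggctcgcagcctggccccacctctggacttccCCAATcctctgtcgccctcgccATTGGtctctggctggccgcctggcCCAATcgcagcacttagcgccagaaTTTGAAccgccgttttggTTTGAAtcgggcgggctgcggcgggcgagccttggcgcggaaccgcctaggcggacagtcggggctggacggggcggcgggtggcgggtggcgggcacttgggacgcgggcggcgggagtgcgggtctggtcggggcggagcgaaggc
Plk1: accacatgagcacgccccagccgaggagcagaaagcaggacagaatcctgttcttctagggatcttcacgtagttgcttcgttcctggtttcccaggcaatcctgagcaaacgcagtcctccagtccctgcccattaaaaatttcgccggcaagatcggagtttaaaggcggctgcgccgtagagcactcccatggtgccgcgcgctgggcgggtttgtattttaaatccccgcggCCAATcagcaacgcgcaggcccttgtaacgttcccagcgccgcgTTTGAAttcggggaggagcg
Cenpf: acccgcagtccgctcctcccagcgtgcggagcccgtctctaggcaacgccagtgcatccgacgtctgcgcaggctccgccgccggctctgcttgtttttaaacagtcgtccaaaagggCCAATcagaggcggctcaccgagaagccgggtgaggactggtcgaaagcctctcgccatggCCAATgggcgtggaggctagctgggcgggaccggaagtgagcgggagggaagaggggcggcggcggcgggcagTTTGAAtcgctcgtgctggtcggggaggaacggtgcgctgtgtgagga
Pold1: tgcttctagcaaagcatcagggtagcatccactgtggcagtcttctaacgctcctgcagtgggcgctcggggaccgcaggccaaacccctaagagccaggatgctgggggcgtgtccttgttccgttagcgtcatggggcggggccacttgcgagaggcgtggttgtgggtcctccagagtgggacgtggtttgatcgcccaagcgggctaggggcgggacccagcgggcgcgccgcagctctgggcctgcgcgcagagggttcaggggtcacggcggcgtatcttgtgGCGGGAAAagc
Cdc6: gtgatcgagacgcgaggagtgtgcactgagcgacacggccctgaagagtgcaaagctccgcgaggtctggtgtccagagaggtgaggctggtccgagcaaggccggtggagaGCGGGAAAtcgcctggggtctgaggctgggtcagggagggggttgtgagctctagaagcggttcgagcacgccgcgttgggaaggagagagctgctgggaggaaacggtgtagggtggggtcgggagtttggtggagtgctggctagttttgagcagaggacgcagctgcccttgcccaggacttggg

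Mki67 held 2 CHR and 3 CCAAT matches, Plk1 1 and 1, and Cenpf 1 and 2. Pold1 and Cdc6 held 1 E2F match each and no CHR or CCAAT match. Of the 31 G2/M promoters in the table, 23 held a CHR match (74.2%) against 19.4% of all 27025 promoters of the same length and 12.9% of the 9674 promoters of the genes tested. A CHR together with a CCAAT match stood in 20 of the 31 (64.5%), against 7.70% of all promoters and 5.57% of those of the genes tested. Of the 28 G1/S promoters in the table, 11 held an E2F match (39.3%) against 2.32% of all promoters and 4.32% of those of the genes tested, and 5 held a CHR match (17.9%). These are matches of letters only, in lists grouped by function but written with earlier results of these data known. The matches say nothing of what bound there at either stage.

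Genes of G1/S and DNA replication differed in the same direction, less uniformly. Of 35 members, 29 lay below 0 and 6 above, with a median of −0.089, and the list median went from 0.033 at E14.5 to −0.095 at E18.5 in the authors' deposited tables. In this list 9 were lower at an unadjusted p under 0.05 and 0 higher, against 2.17% and 2.39% of all genes. Lig1, the ligase that joins Okazaki fragments, stood at 0.10 (SE 0.049) and −0.12 (SE 0.060) at the respective stages of the authors' deposited tables, a difference of −0.22 (SE 0.077). Pole, the leading-strand polymerase, differed by −0.29 (SE 0.111), and Pold1, the lagging-strand polymerase, by −0.23 (SE 0.093). The largest estimate was that of Cdc6, at −0.47 (SE 0.195). Subunits of the MCM helicase were spread, from Mcm5 at −0.21 (SE 0.096), one of the 9, to Mcm7 at −0.03 (SE 0.058), both named after their values were seen. Between them lay Mcm3 at −0.09 (SE 0.101) and Mcm2 at −0.06 (SE 0.093). The sliding clamp gene Pcna was at 0.01 (SE 0.074). Rfc4, a clamp loader subunit, was the highest at 0.12 (SE 0.143). Genes of DNA repair and cohesin had 18 of 24 members below 0 and a median of −0.065. The members at an unadjusted p under 0.05 were Rad51ap1, a factor of homologous recombination, at −0.42 (SE 0.164), and the condensin subunits Ncaph at −0.24 (SE 0.102) and Ncapd2 at −0.13 (SE 0.060). Brca1 and Brca2, of homologous recombination, were at −0.10 (SE 0.148) and −0.06 (SE 0.118).

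The gene with the most extreme statistic also acts in replication. Pif1, a DNA helicase of replication forks and telomeres (NCBI gene ID 208084, chromosome 9 at 65587150 to 65595967 in GRCm38.p6), rose at E14.5 in the authors' deposited table at 0.31 (SE 0.069, DESeq2 adjusted p = 0.00187). The authors' deposited table for E18.5 gave it −0.30 (SE 0.132, DESeq2 adjusted p = 0.77). The stage difference was −0.61 (SE 0.149, 95% interval −0.91 to −0.32; Wald adjusted p = 0.347). The intervals of the single stages lay on opposite sides of 0 without touching it, as the plot of the extreme genes shows. Cenpa, the histone variant of centromeres, stood at 0.16 (SE 0.059) and −0.21 (SE 0.085) in the authors' deposited tables and differed by −0.38 (SE 0.103, adjusted p = 0.369).

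**Figure D2:**
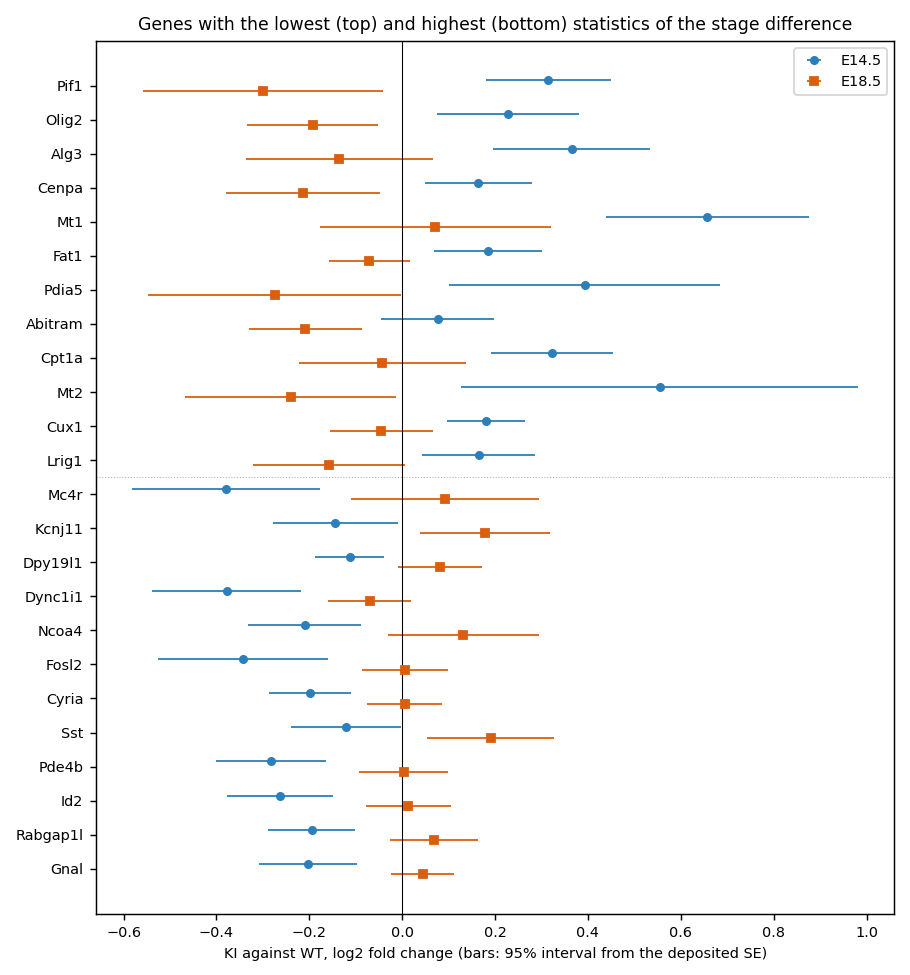
Log2 fold change of KI against WT at E14.5 (circles) and E18.5 (squares), with 95% intervals from the deposited SEs, for the 12 genes with the lowest and the 12 with the highest statistic of the stage difference. Pif1 goes from 0.31 to −0.30 and Gnal from −0.20 to 0.04; the genes were chosen for this difference, so their separation is a description.

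Genes of radial glia, the dividing stem cells of the ventricular zone, had the same sign as the division genes. Of 25 members 21 lay below 0, the median was −0.091, and the list median went from 0.033 at E14.5 to −0.057 at E18.5 in the authors' deposited tables. Of these, 4 were lower at an unadjusted p under 0.05 and 0 higher, against 2.17% and 2.39% of all genes. Ttyh1, a membrane protein of neural stem cells, rose at E14.5 in the authors' deposited table (0.13, SE 0.037, DESeq2 adjusted p = 0.0491) and stood at −0.04 (SE 0.045) at E18.5, a difference of −0.17 (SE 0.058). Mt3, the brain metallothionein, differed by −0.38 (SE 0.161) and Zfp36l1, an RNA-destabilising protein, by −0.20 (SE 0.092). The fourth was the receptor gene Notch1, at −0.16 (SE 0.082), named after its value was seen. Sox2 and Pax6, transcription factors of these cells, did not share a sign, at −0.11 (SE 0.080) and 0.09 (SE 0.077), and neither reached an unadjusted p of 0.05. Their 95% intervals, −0.27 to 0.04 and −0.06 to 0.24, both include 0.

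Patterning factors of the telencephalon had 11 of 14 members below 0 and a median of −0.107. Otx1, a homeobox gene of the cortical primordium, differed by −0.26 (SE 0.120), the only member at an unadjusted p under 0.05. Emx2 and Dmrta2, which pattern the medial cortex, were at −0.19 (SE 0.103) and −0.22 (SE 0.125), while Emx1 was at −0.05 (SE 0.100) and Nr2f1 at 0.01 (SE 0.062). RNA regulators and growth genes of young progenitors had a list median of 0.141 at E14.5 and of 0.041 at E18.5 in the authors' deposited tables, with 5 of 7 stage differences below 0. Ccnd1, cyclin D1, rose at E14.5 in the authors' deposited table (0.18, SE 0.046, DESeq2 adjusted p = 0.0138) and stood at 0.01 (SE 0.069) at E18.5, a difference of −0.17 (SE 0.083). Lin28b, which blocks let-7 maturation, was an exception, at 0.34 (SE 0.100) and 0.38 (SE 0.124) in the authors' deposited tables, a difference of 0.04 (SE 0.159).

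Genes of intermediate progenitors, the transit cells between radial glia and neurons, had no common sign. Their 14 members were split 7 to 7, the median difference was −0.009, and the list medians were 0.051 at E14.5 and 0.040 at E18.5 in the authors' deposited tables. Eomes, which defines these cells, differed by −0.15 (SE 0.142) and Neurog2, the proneural factor, by 0.07 (SE 0.098). Sstr2, a somatostatin receptor, was the only member at an unadjusted p under 0.05, at 0.22 (SE 0.093). The mean normalized counts of this list were lower at E18.5, with a median log2 ratio of −1.57, close to the −1.46 of the replication genes. Wnt targets and modulators were split as well, 10 of 16 below 0. The feedback inhibitor Axin2, a standard readout of the pathway, stood at 0.15 (SE 0.054) and −0.10 (SE 0.064) in the authors' deposited tables, a difference of −0.25 (SE 0.083). The ligand Wnt7b differed by 0.15 (SE 0.067) and the effector Ctnnb1 by 0.02 (SE 0.046).

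Deep-layer projection neurons, the first-born excitatory cells of the cortex, showed the highest list median. Of 23 members 19 lay above 0, with a median of 0.116. Their list median was −0.112 at E14.5, with 4 of 23 above 0, and 0.005 at E18.5, with 12 above 0, in the authors' deposited tables. The list median thus went from below WT to near WT. With an unadjusted p under 0.05 there were 6 higher members and 1 lower, against 2.39% and 2.17% of all genes. Nfib, a transcription factor of corticofugal neurons, stood at −0.09 (SE 0.038) and 0.05 (SE 0.040) in the authors' deposited tables, a difference of 0.13 (SE 0.055). Cdh13, an adhesion molecule, differed by 0.20 (SE 0.082). Tbr1, the layer 6 selector gene, stood at −0.12 (SE 0.045) and −0.03 (SE 0.037) in those deposited tables, a difference of 0.09 (SE 0.058) that did not reach an unadjusted p of 0.05. Bcl11b, the layer 5 factor, differed by 0.08 (SE 0.071). Tshz2, a zinc finger factor, went the other way, at 0.11 (SE 0.068) and −0.11 (SE 0.074) in the authors' deposited tables and −0.22 (SE 0.100) between stages.

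Genes of upper-layer neurons, which are born later, had no common sign: 9 of 19 lay above 0 and the median was −0.019. Cux1, a homeobox gene of upper layers that progenitors also express, rose at E14.5 in the authors' deposited table (0.18, SE 0.043, DESeq2 adjusted p = 0.00628), stood at −0.05 (SE 0.057) at E18.5 and differed by −0.23 (SE 0.071). Mef2c, a factor of maturing neurons, fell at E14.5 in the authors' deposited table (−0.23, SE 0.047, DESeq2 adjusted p = 0.000687), stood at −0.10 (SE 0.039) at E18.5 and differed by 0.13 (SE 0.061). Cajal-Retzius genes had 8 of 11 members above 0, among them Ndnf, a secreted factor of layer 1, at 0.35 (SE 0.155), while Reln, their defining signal, was at −0.01 (SE 0.062).

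Pan-neuronal and cytoskeleton genes had 23 of 28 members above 0 and a median of 0.070. At an unadjusted p under 0.05, 5 were higher and 0 lower, against 2.39% and 2.17% of all genes. Snap25, of the synaptic fusion machinery, stood at −0.07 (SE 0.055) and 0.11 (SE 0.041) in the authors' deposited tables, a difference of 0.18 (SE 0.068). Stmn4, a microtubule regulator, fell at E14.5 in the authors' deposited table (−0.21, SE 0.048, DESeq2 adjusted p = 0.00284), stood at −0.05 (SE 0.051) at E18.5 and differed by 0.17 (SE 0.071). Elavl3, a neuronal RNA-binding protein, differed by 0.12 (SE 0.050). Of the markers most used for young neurons, Tubb3, neuronal tubulin, was at 0.05 (SE 0.050) and Dcx, doublecortin, at 0.06 (SE 0.044). Neurofilament genes were on the other side, Nefl at −0.08 (SE 0.081) and Nefm at −0.08 (SE 0.080). Neurod6, a marker of young excitatory neurons that was chosen after its values were seen, fell at E14.5 in the authors' deposited table (−0.20, SE 0.046, DESeq2 adjusted p = 0.00438), stood at −0.02 (SE 0.060) at E18.5 and differed by 0.17 (SE 0.076).

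**Figure D3:**
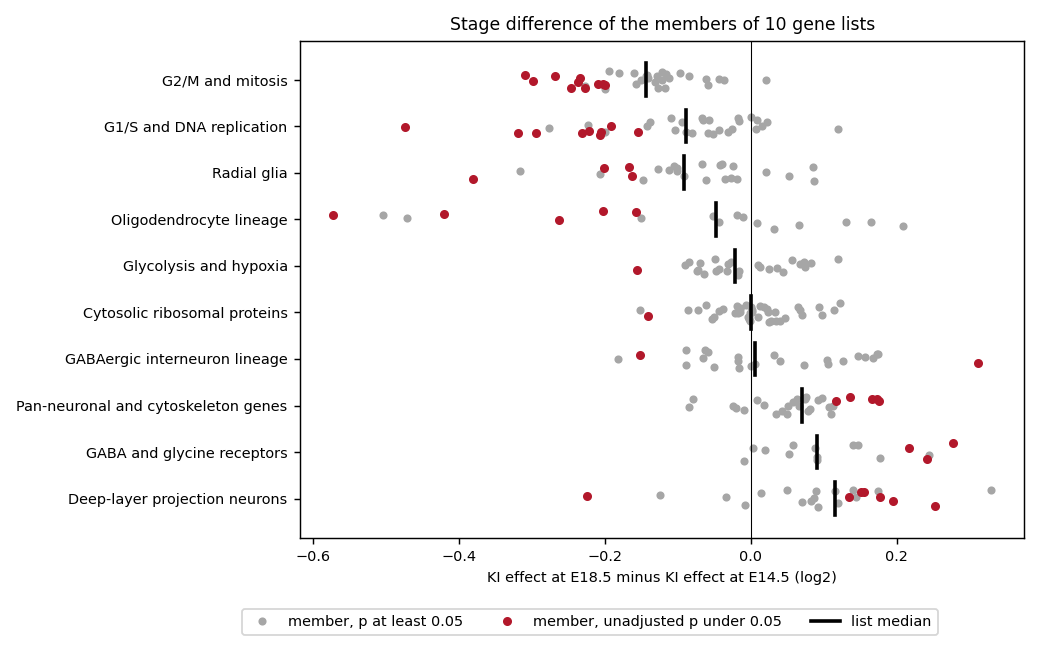
Stage difference of each member of 10 gene lists, 1 point per gene, red where the unadjusted p is under 0.05; the bar is the list median. The G2/M members lie below 0 except 1, the ribosomal proteins lie around 0, and the deep-layer members lie above 0 except 4.

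Receptor genes had the same sign as the pan-neuronal genes. GABA and glycine receptors had 14 of 15 members above 0, a median of 0.091, and list medians of −0.101 at E14.5 and 0.011 at E18.5 in the authors' deposited tables. Glra2, the embryonic glycine receptor subunit, stood at −0.10 (SE 0.054) and 0.12 (SE 0.055) in those deposited tables, a difference of 0.22 (SE 0.077). The GABA-A subunits Gabra2 and Gabra4 differed by 0.24 (SE 0.112) and 0.28 (SE 0.133), and the GABA-B subunit Gabbr1 was the lone member below 0, at −0.01 (SE 0.054). Glutamate receptors and postsynaptic genes had 18 of 24 above 0 and a median of 0.086. Gria1, an AMPA receptor subunit, differed by 0.13 (SE 0.059), and Grm5, a metabotropic receptor, by 0.16 (SE 0.076). The scaffold Shank1 was at −0.10 (SE 0.117).

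Other classes of the synapse and of excitability had smaller medians. Synaptic vesicle genes had 16 of 25 above 0 (median 0.042), with Cplx1, a brake on fusion, at 0.15 (SE 0.068) and Rims2, an active zone gene that rose at E14.5 in the authors' deposited table (0.23, SE 0.066, DESeq2 adjusted p = 0.0383), at −0.15 (SE 0.080). Voltage-gated channels had 16 of 23 above 0 (median 0.023). Axon guidance genes had 15 of 24 above 0 (median 0.037). Draxin, a repellent of commissural axons, fell at E14.5 in the authors' deposited table (−0.28, SE 0.049, DESeq2 adjusted p = 9.97e-06), stood at −0.15 (SE 0.042) at E18.5 and differed by 0.13 (SE 0.064). Sema3a, a repulsive semaphorin, differed by 0.19 (SE 0.084). Immediate early genes had 9 of 13 above 0 (median 0.038), with Fosl2, an AP-1 subunit that fell at E14.5 in the authors' deposited table (−0.34, SE 0.093, DESeq2 adjusted p = 0.026), at 0.35 (SE 0.104). Clustered protocadherins, whose isoforms share exons so that reads can be split among them, had 12 of 17 above 0 (median 0.047), and REST targets 14 of 19 (median 0.046).

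Striatal neuron genes had 14 of 19 members above 0 and a median of 0.062, with the phosphodiesterase Pde10a at 0.15 (SE 0.076). The gene with the highest statistic over all genes, Gnal, encodes the G protein alpha subunit through which striatal dopamine and adenosine receptors raise cyclic AMP. It fell at E14.5 in the authors' deposited table (−0.20, SE 0.053, DESeq2 adjusted p = 0.018), stood at 0.04 (SE 0.035) at E18.5 and differed by 0.25 (SE 0.064, 95% interval 0.12 to 0.37; Wald adjusted p = 0.347). Pde4b, which degrades cyclic AMP, was among the 4 highest statistics. It fell at E14.5 in the authors' deposited table (−0.28, SE 0.060, DESeq2 adjusted p = 0.0012), stood at 0.00 (SE 0.049) at E18.5 and differed by 0.29 (SE 0.078). Id2, an inhibitor of bHLH factors, fell at E14.5 in the same deposited table (−0.26, SE 0.058, DESeq2 adjusted p = 0.00205), stood at 0.01 (SE 0.047) at E18.5 and differed by 0.28 (SE 0.074). In all 3, a called change at E14.5 stood beside an estimate near 0 at E18.5.

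The GABAergic interneuron lineage as a whole showed no common shift, with 13 of 25 above 0 and a median of 0.005. Its list medians were 0.059 at E14.5 and 0.088 at E18.5 in the authors' deposited tables, so its members stood above WT on balance at both stages. By statistic its lowest members were Dlx genes and its highest was Sst. Dlx2, a selector gene of ganglionic eminence progenitors, differed by −0.15 (SE 0.077) and Dlx1 by −0.09 (SE 0.065). Gad1 and Gad2, the enzymes that make GABA, differed by 0.07 (SE 0.092) and 0.04 (SE 0.076). Sst, the peptide of a class of maturing interneurons, stood at −0.12 (SE 0.061) and 0.19 (SE 0.070) in the authors' deposited tables, a difference of 0.31 (SE 0.092, Wald adjusted p = 0.672).

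Glial lineages stood lower at E18.5. The oligodendrocyte lineage had 12 of 18 members below 0 and a median of −0.048. At an unadjusted p under 0.05, 5 were lower and 0 higher, against 2.17% and 2.39% of all genes. Olig2, the transcription factor that specifies the lineage and is also made by ventral progenitors (chromosome 16 at 91225550 to 91228677 in GRCm38.p6), stood at 0.23 (SE 0.078) and −0.19 (SE 0.072) in the authors' deposited tables. Its difference was −0.42 (SE 0.106, 95% interval −0.63 to −0.21; Wald adjusted p = 0.347). Olig1, its neighbour in function, differed by −0.26 (SE 0.125), Sox8 by −0.20 (SE 0.091), and Ugt8a, which makes myelin galactolipid, by −0.57 (SE 0.236). Later markers of the lineage were on the other side, Gpr17 at 0.21 (SE 0.226) and Lhfpl3 at 0.13 (SE 0.144), with intervals that span 0. The astrocyte lineage had 12 of 16 below 0 and a median of −0.057. At that p, 3 were lower and 0 higher, against the same 2.17% and 2.39% of all genes. Mlc1, an astrocyte membrane protein, rose at E14.5 in the authors' deposited table (0.34, SE 0.063, DESeq2 adjusted p = 4.79e-05), stood at 0.06 (SE 0.068) at E18.5 and differed by −0.28 (SE 0.092). Fgfr3 differed by −0.17 (SE 0.081) and Aldoc, the aldolase of astrocytes and radial glia, by −0.16 (SE 0.072). Aldoc is counted in the glycolysis list as well.

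Metallothioneins, small proteins that bind zinc and copper, gave some of the largest estimates. Mt1 rose at E14.5 in the authors' deposited table (0.66, SE 0.111, DESeq2 adjusted p = 4.91e-06), stood at 0.07 (SE 0.127) at E18.5 and differed by −0.59 (SE 0.169). Mt2 stood at 0.55 (SE 0.218) and −0.24 (SE 0.116) in the authors' deposited tables and differed by −0.79 (SE 0.247). With Mt3, which is counted in the radial glia list as well, all 3 metallothionein genes measured were lower at an unadjusted p under 0.05. The share over all genes was 2.17%. The 4 zinc transporters of the list had unadjusted p over 0.05, among them Slc39a8 at −0.08 (SE 0.154) and Slc39a10, the lone member above 0, at 0.09 (SE 0.054).

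Most metabolic and translation lists had like medians at both stages. Glycolysis and hypoxia genes had list medians of 0.098 at E14.5 and 0.084 at E18.5 in the authors' deposited tables, with 23 and 22 of 26 above 0, and a median stage difference of −0.022. Pkm, pyruvate kinase, rose at both stages in the authors' deposited tables, at 0.17 (SE 0.042, DESeq2 adjusted p = 0.0063) and 0.14 (SE 0.030, DESeq2 adjusted p = 0.00841), and differed by −0.03 (SE 0.052, 95% interval −0.13 to 0.07). Pfkl, liver phosphofructokinase, rose at both as well, at 0.23 (SE 0.051) and 0.20 (SE 0.047), with a difference of −0.03 (SE 0.069). Cytosolic ribosomal proteins were split 21 to 21 with a median difference of −0.0003 and list medians of 0.050 and 0.047. Nuclear genes of mitochondrial respiration had a median of 0.009, with 0 of 29 at an unadjusted p under 0.05. Ribosome biogenesis was apart from the ribosomal proteins: 19 of 22 lay below 0, with a median of −0.054 and Polr1a, the large subunit of RNA polymerase I, at −0.18 (SE 0.072). Of the stress genes, Atf4, the master factor of the amino acid response, rose at E14.5 in the authors' deposited table (0.16, SE 0.046, DESeq2 adjusted p = 0.0383), stood at −0.02 (SE 0.048) at E18.5 and differed by −0.18 (SE 0.066). The unfolded protein and Atf4 response list, Atf4 counted, had 13 of 24 above 0 and 11 below, with a median of 0.016. At an unadjusted p under 0.05, 4 were lower (Atf4, Aldh18a1, Sesn2 and Psat1), against 2.17% of all genes, and 0 higher.

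The class I histocompatibility genes H2-K1 and H2-D1, near-identical paralogs whose reads counting can split, rose at E14.5 in the authors' deposited table (DESeq2 adjusted p = 4.8e-05 and 0.00678). H2-K1 was at 0.79 (SE 0.146) and 0.57 (SE 0.189) and H2-D1 at 0.39 (SE 0.094) and 0.24 (SE 0.082) in the authors' deposited tables. Their stage differences, −0.22 (SE 0.239) and −0.15 (SE 0.125), had intervals that include 0. Imprinted genes stood above WT at both stages on balance, with 20 and 19 of 22 above 0 in the authors' deposited tables. Among them Dlk1, a Notch ligand homologue, rose at E14.5 in the authors' deposited table (0.31, SE 0.083, DESeq2 adjusted p = 0.0211), stood at −0.09 (SE 0.143) at E18.5 and differed by −0.40 (SE 0.165).

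Chromatin genes leaned lower. Of 98 members, 66 lay below 0, with a median of −0.021, and 9 were lower (9.18%, against 2.17%) and 1 higher at an unadjusted p under 0.05. Chd8 itself, whose added copy defines KI, is among the 9 lower genes. Among the CHD remodelers 7 of 9 lay below 0, Chd8 included, with Chd7, the gene of CHARGE syndrome, at −0.16 (SE 0.077), Chd6 at −0.09 (SE 0.062) and Chd3 at 0.06 (SE 0.051). Polycomb genes had 15 of 21 below 0. Phf19, a Polycomb-like subunit, rose at E14.5 in the authors' deposited table (0.67, SE 0.107, DESeq2 adjusted p = 5.89e-07), stood at 0.12 (SE 0.157) at E18.5 and differed by −0.54 (SE 0.189). Cbx2 and Ring1, of the repressive complex that modifies histone H2A, differed by −0.23 (SE 0.099) and −0.29 (SE 0.141), and the methyltransferase Ezh2 by −0.10 (SE 0.072). Dnmt3a, the de novo DNA methyltransferase, rose at E14.5 in the authors' deposited table (0.26, SE 0.048, DESeq2 adjusted p = 3.33e-05), stood at 0.12 (SE 0.038) at E18.5 and differed by −0.14 (SE 0.061). SWI/SNF, ISWI and INO80 subunits had a median of −0.010, with Smarca2, a catalytic subunit of SWI/SNF that neurons favour, at 0.13 (SE 0.055) and its partner paralog Smarca4 at 0.02 (SE 0.054). Autism genes outside chromatin enzymes had a median of 0.025, with Katnal2, a katanin-like gene, lower at −0.60 (SE 0.220).

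Genes called at E14.5 were followed to E18.5. Over all genes listed at each stage, the deposited adjusted p called 162 at E14.5 and 9 at E18.5. Among the genes compared here it called 151 (1.23%) at the earlier stage and 9 (0.0733%) at the later one, Chd8 included at both. Of the 150 besides Chd8, 127 kept their sign at E18.5 (84.7%), against 7018 of the 12128 not called (57.9%). Their median absolute log2 fold change was 0.248 at E14.5, and the median at E18.5, signed by the direction at E14.5, was 0.095. A call at E14.5 selects estimates that are far from 0 there, so some fall toward 0 at the other stage comes with the selection. The fall is therefore no measure of weakening, and how much of it the selection accounts for was not tested. With an unadjusted p under 0.05 at E18.5, 52 had the same sign and 1, Pif1, the opposite one. Of the 8 genes called at E18.5 besides Chd8, all 8 had the same sign at E14.5, with median sizes of 0.258 at E18.5 and 0.227 at E14.5. Marchf8, a ubiquitin ligase of membrane proteins, rose at both stages in the authors' deposited tables, at 0.23 (SE 0.041, DESeq2 adjusted p = 2.72e-05) and 0.21 (SE 0.039, DESeq2 adjusted p = 0.000386), with a difference of −0.02 (SE 0.056). Crlf2, a cytokine receptor subunit, fell at both in the authors' deposited tables, at −0.51 (SE 0.143) and −0.48 (SE 0.103), with a difference of 0.04 (SE 0.177).

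**Figure D4:**
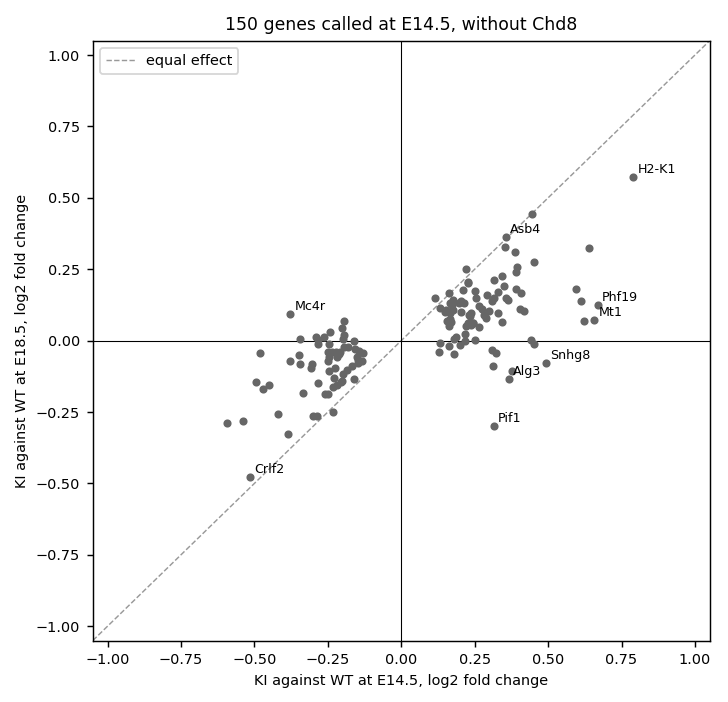
Log2 fold change of KI against WT at E14.5 (x axis) and E18.5 (y axis), 1 point per gene. Shown are the 150 compared genes other than Chd8 that were called at E14.5. The dashed line is an equal effect at both stages. Most points lie between the line and the horizontal axis, 127 keep their sign, and Pif1 is the point far below 0 on the right.

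Opposite signs with support at both stages were rare. Of 202 genes at an unadjusted p under 0.05 at both stages, 192 had the same sign and 10 opposite signs. Higher at E14.5 and lower at E18.5 were Pif1, Cenpa, Spag5 and Lig1, which act in replication and mitosis, Olig2, Mt2, Pdia5, a protein disulfide isomerase, and Pgap6. Lower at E14.5 and higher at E18.5 were Sst and Kcnj11, a potassium channel subunit. Spag5, a spindle protein, and Pgap6 were chosen after their values were seen. The 294 genes that stood higher at E18.5 at an unadjusted p under 0.05 had median log2 fold changes of −0.143 and 0.065 in the authors' deposited tables, and 84.4% of them had opposite signs at the stages. The 266 that stood lower had medians of 0.138 and −0.102, and 89.1% had opposite signs, against 41.8% of all genes. The difference itself chose these genes, so the shares are a description.

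The stage difference moved with how a gene's level changed as the forebrain matured. Genes were placed in 5 equal groups by the log2 ratio of their mean normalized counts, E18.5 to E14.5, from the authors' deposited tables. In the group whose level was lower at E18.5 (median ratio −0.56), the median fold change of KI was 0.025 at E14.5 and −0.011 at E18.5, and 34.6% of stage differences lay above 0. In the group whose level was higher at E18.5 (median ratio 0.99) the medians were −0.032 and 0.009, and 63.2% lay above 0. The first group held, at an unadjusted p under 0.05, 29 higher and 121 lower genes, and the last 163 higher and 34 lower. Across the 12279 genes Spearman's rho between the stage difference and the ratio was 0.23 and Pearson's r 0.24. It was −0.20 for the E14.5 effect and 0.08 for the E18.5 effect (Spearman's rho). Genes are not independent replicates, the ratio comes from the same libraries as the fold changes, and each table was normalized on its own, so no p is given. Among the 11381 genes of no list the medians of the outer groups differed by 0.066, against 0.072 over all genes.

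**Figure D5:**
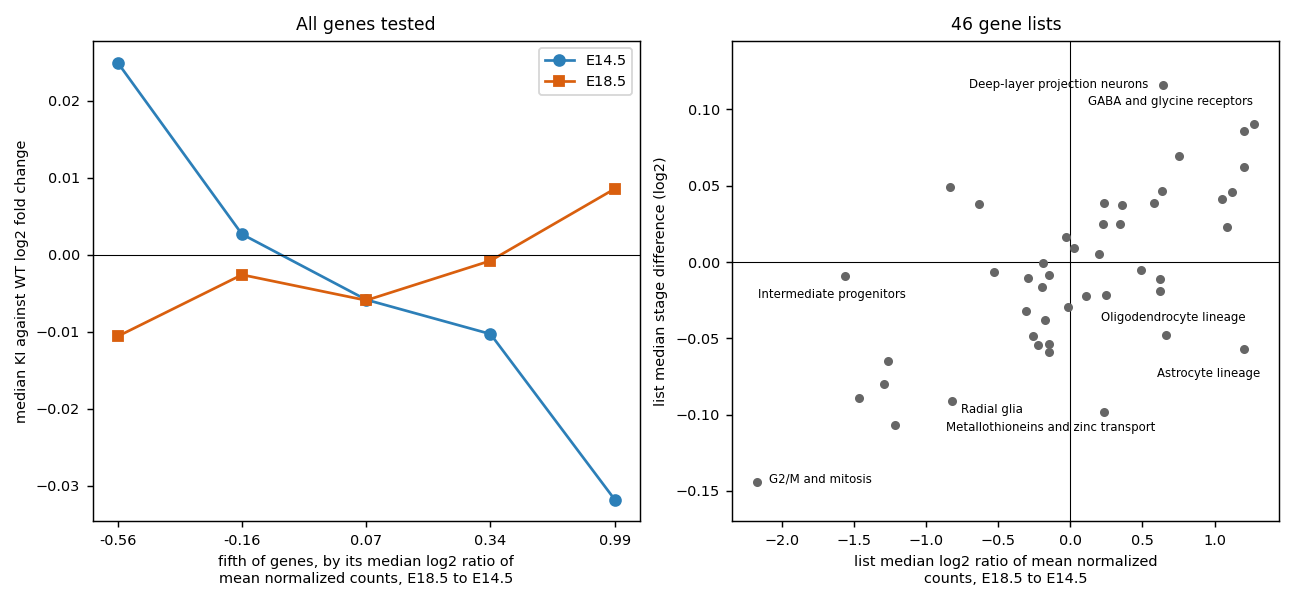
Left: median log2 fold change of KI against WT at E14.5 and E18.5 in 5 equal groups of genes, ordered by the log2 ratio of mean normalized counts between stages; the E14.5 medians run from 0.025 to −0.032 and the E18.5 medians from −0.011 to 0.009. Right: list median of the stage difference against list median of that ratio, 1 point per list with at least 5 members; G2/M lies at −2.17 and −0.144, and the astrocyte lineage, at 1.20 and −0.057, lies off the trend.

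Some lists did not sit where this relation would place them. The astrocyte and oligodendrocyte lineages had levels that were higher at E18.5 (median log2 ratios 1.20 and 0.67) and stage differences below 0. Intermediate progenitors had a ratio of −1.57 and a median difference of −0.009. Metallothioneins and zinc transporters had a ratio of 0.24 and a median of −0.098. The upper-layer and deep-layer lists had like ratios, 0.62 and 0.64, and medians of −0.019 and 0.116. Whether these departures exceed the spread between libraries was not tested, since the values per library are not used here. Long genes leaned higher. Among 5 equal groups by gene span, the one with the longest span had a median of 0.012. It held 104 higher and 40 lower genes at an unadjusted p under 0.05. In the other 4 groups by span the median lay between −0.008 and −0.0001. Genes of high count leaned the same way. Of 5 equal groups by the geometric mean of both stages' counts, the highest had 54.8% above 0, with 78 higher and 37 lower at that p. The lowest had 47.1% above 0, with 48 higher and 63 lower. Whether span and count act separately was not tested.

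Tissue outside the cortical wall was checked at both stages. No Hox gene, the markers of hindbrain and spinal cord, reached the minimum at both stages, while the cortical genes Emx1 and Tbr1 did. Lists for microglia, vessels, meninges, choroid plexus, erythroid cells and diencephalon or hindbrain had 55 members measured. Of these 55, 0 were at an unadjusted p under 0.05, against 4.56% of all genes. That share of 55 is small, so the count of 0 does not show that these tissues were alike. Precision was low for some of the members. Col1a2, a collagen of the meninges, had in the authors' deposited table for E18.5 an SE of 1.15, against a median of 0.068 over all genes. Choroid plexus and erythroid lists had 3 of 19 and 3 of 15 genes measured, all with negative differences, and the erythroid list median went from 0.490 to 0.100 in the authors' deposited tables, with a median SE of the difference of 0.51. Microglia genes had a median difference of 0.025 over 10 members and endothelium and pericytes one of 0.039 over 20. The part of dissection or blood in the stage differences above was not tested.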

How the data were processed

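RNA-seq of 20 forebrain libraries (5 WT and 5 Chd8 KI per stage) entered through the 2 tables, 1 per stage, in which the authors compared KI with WT. The submitters' processing notes list the authors' tools as DESeq2 1.26.0, featureCounts 2.0.0, HISAT2 2.1.0 and Trimmomatic 0.39, and mm10 as a build. Per the file headers, the deposited tables give per gene a mean normalized count (treated as a signal, a mean across libraries), a log2 fold change, its SE, a score (the Wald statistic, equal to the log2 fold change divided by its SE), a p-value and that p-value adjusted. They hold 0 columns of per-library values, so the depth per library is unknown here and precision rests on the SEs, whose medians were 0.065 at E14.5 and 0.068 at E18.5. The 2 tables were normalized and filtered separately: the lowest mean normalized count was 0.987 at E14.5 and 9.70 at E18.5.

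Genes whose mean normalized count reached 50 at both stages were joined on NCBI gene ID (12279 genes), of which 12128 (98.8%) matched a symbol in the RefSeq table of GRCm38.p6. Without a deposited p-value were 1 of them at E14.5 and 8 at E18.5, and these stayed in. The stage difference was tested with a two-sided Wald test (normal reference, SE from the square root of the sum of both squared SEs, no shared libraries) and Benjamini-Hochberg adjustment over all 12279 genes, called under 0.05. Calls at 1 stage use the adjusted p of DESeq2 as the authors deposited it. The script was tested on simulated data, where it made 9 false calls beside those recovered. Python 3.11.15, pandas 2.3.3, numpy 2.4.6 and scipy 1.17.1 were used.

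Of the 49 gene lists, 1041 genes in all, 898 were measured; some genes stand in more than 1 list. The members and the lists were chosen with earlier results of these data known, so no list p is given. Named genes are Chd8, the 12 highest and 12 lowest statistics of the difference (clone names and pseudogenes left out), per list the first 2 as written and the 3 highest and 3 lowest members, the genes called at E18.5, and of those called at E14.5 the 6 largest and 6 smallest differences. Some members counted at an unadjusted p under 0.05 are named besides, chosen after their values were seen. Promoter GC content was set aside because only 78.8% of the genes had a promoter in the RefSeq table. Alternatives were other count minimums, a t reference, an empirical null, a centred difference, another adjustment, and for lists a weighted mean and members of no other list. The ChIP-seq and ATAC-seq libraries were not analysed here, and a few named genes are not reported here.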

Additional observations from a re-analysis of the deposited data

How the results depend on the processing

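The number of genes called for the stage difference was 0 in 8 of 8 alternatives to the Wald test with Benjamini-Hochberg adjustment. At an unadjusted p under 0.05 the numbers higher and lower at E18.5 were 325 and 312 with a minimum of 10, 270 and 235 with a minimum of 100, 335 and 324 with none, 214 and 179 with a t reference of 16 degrees of freedom, 401 and 345 with the empirical null, and 295 and 262 with the centred difference. Of 274 recomputed list medians 8 changed sign. With the inverse-variance weighted mean in place of the median, intermediate progenitors came to 0.010, upper-layer neurons to 0.013, ribosomal proteins to 0.008, the unfolded protein and Atf4 response to −0.029 and SWI/SNF, ISWI and INO80 subunits to 0.003. Upper-layer members of no other list came to 0.002, the centred ribosomal list to 0.0001, and the diencephalon list with a minimum of 10 to −0.049. The medians of the outer groups by level ratio differed by 0.068 with a minimum of 100 and 0.074 with 10. No paired analysis was possible because the tables hold no values per library, and leaving out single libraries could not be run for the same reason. The group of genes in no list was an alternative chosen after seeing the data. Erythroid genes had a median SE of the difference of 0.51, against 0.096 over all genes.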

Other observations

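Other genes with extreme stage differences fall outside the lists. Alg3, a mannosyltransferase of N-glycosylation, rose at E14.5 in the authors' deposited table (0.37, SE 0.086, DESeq2 adjusted p = 0.00511), stood at −0.14 (SE 0.103) at E18.5 and differed by −0.50 (SE 0.134, Wald adjusted p = 0.369). Cpt1a, which admits long-chain fatty acids to mitochondria, rose at E14.5 in that deposited table (0.32, SE 0.067, DESeq2 adjusted p = 0.000668), stood at −0.04 (SE 0.091) at E18.5 and differed by −0.37 (SE 0.113). Fat1, an atypical cadherin, differed by −0.26 (SE 0.074) and Lrig1, a brake on growth factor receptors, by −0.32 (SE 0.104). Snhg8, a host gene of a small nucleolar RNA, rose at E14.5 in the authors' deposited table (0.49, SE 0.135, DESeq2 adjusted p = 0.0293) and differed by −0.57 (SE 0.216).

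On the other side, Rabgap1l, a regulator of Rab GTPases, fell at E14.5 in the authors' deposited table (−0.19, SE 0.048, DESeq2 adjusted p = 0.00856), stood at 0.07 (SE 0.049) at E18.5 and differed by 0.26 (SE 0.068, Wald adjusted p = 0.347). Cyria, a regulator of the actin nucleator WAVE, fell at E14.5 in that deposited table (−0.20, SE 0.045, DESeq2 adjusted p = 0.00277), stood at 0.00 (SE 0.041) at E18.5 and differed by 0.20 (SE 0.061). Dync1i1, a subunit of neuronal dynein, fell at E14.5 in the authors' deposited table (−0.38, SE 0.082, DESeq2 adjusted p = 0.00167), stood at −0.07 (SE 0.045) at E18.5 and differed by 0.31 (SE 0.094). Mc4r, the melanocortin 4 receptor of hypothalamic neurons, fell at E14.5 in the same deposited table (−0.38, SE 0.103, DESeq2 adjusted p = 0.026), stood at 0.09 (SE 0.103) at E18.5 and differed by 0.47 (SE 0.146). Ncoa4, the receptor for autophagy of ferritin, differed by 0.34 (SE 0.104). Nnat, an imprinted membrane protein of neurons, stood at 0.11 (SE 0.031) and 0.15 (SE 0.039) in the authors' deposited tables, and Anp32a, a histone chaperone, at 0.16 (SE 0.040) and 0.17 (SE 0.041), with differences of 0.03 (SE 0.049) and 0.00 (SE 0.057).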
